A study of Mus musculus with 22 samples.

Results

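The 34 genes described here encode proteins that carry a cell through mitosis and cytokinesis, out of 49670 genes in the right ventricle (RV) table and 49671 in the left ventricle (LV) table. They are a list of gene symbols, found in both tables by Ensembl ID with the GENCODE annotation of mm10. All 34 passed the filter on low values in every comparison, so all 34 are counted throughout. By role, 8 act at mitotic entry, 2 shape chromosomes, 6 belong to centromeres and kinetochores, 3 to the spindle checkpoint, 2 to the chromosomal passenger complex, 2 work with the anaphase-promoting complex, 6 build or move the spindle, and 5 (Anln, Ect2, Racgap1, Kif23 and Prc1) act in cytokinesis. The other 29 are called the nuclear division genes below.

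Bulk RNA was sequenced from both ventricles of CD1 mice, an outbred stock, that had surgery on postnatal day 1 and were sampled 7 days later. The groups were neonatal pulmonary artery banding (nPAB, set with a 30G needle; 6 mice, numbered 5, 6, 7, 8, 10 and 11) and the sham operation (Sham; 5 mice, numbered 9 to 13). Each mouse gave 1 RV and 1 LV library, so there were 22 libraries in 4 groups, and all carry the same batch label. The labels name no genotype, transgene or drug, and mice that share a number in nPAB and Sham are different animals. Banding narrows the outflow of the RV, and the LV of the same mice was not banded, so the RV comparison is about the loaded ventricle and the LV comparison about the contralateral one.

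Entry into mitosis is driven by Cdk1 bound to cyclin A or B, the spindle checkpoint holds the cell until kinetochores are attached, and the anaphase-promoting complex then destroys cyclins so that chromosomes part. Cytokinesis follows, when Prc1 bundles the central spindle, centralspindlin (Racgap1 and Kif23) recruits Ect2, and anillin (Anln) anchors the contractile ring. In the mouse heart, cardiomyocytes leave the cell cycle in the days after birth, many after a last nuclear division without cytokinesis, while endothelial cells, fibroblasts and other cells also divide. The transcripts of these genes peak together in G2 and M, through promoters that often hold a cell cycle genes homology region (CHR, TTTGAA or TTTAAA, bound by the MuvB core complex) and CCAAT boxes (bound by NF-Y).

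The promoters of 6 members are shown because these elements are what the genes share in sequence: Ccnb2, Plk1, Cdc20 and Cenpa stand for nuclear division and Kif23 and Anln for cytokinesis. Each runs from 250 bases before to 50 bases after the start of the gene, 5′ to 3′ on the gene's own strand, from RefSeq on GRCm38.p6, the patch series of mm10. They lie at chr9:70421505-70421804 on the minus strand, chr7:122159185-122159484 on the plus strand, chr4:118437294-118437593 on the minus strand, chr5:30666636-30666935 on the plus strand, chr9:61946750-61947049 on the minus strand and chr9:22389157-22389456 on the minus strand. Capitals mark the CHR (TTTGAA, or TTTAAA) and the CCAAT box. Where the match is on the opposite strand, the first CHR reads TTCAAA and the box reads ATTGG.
Ccnb2: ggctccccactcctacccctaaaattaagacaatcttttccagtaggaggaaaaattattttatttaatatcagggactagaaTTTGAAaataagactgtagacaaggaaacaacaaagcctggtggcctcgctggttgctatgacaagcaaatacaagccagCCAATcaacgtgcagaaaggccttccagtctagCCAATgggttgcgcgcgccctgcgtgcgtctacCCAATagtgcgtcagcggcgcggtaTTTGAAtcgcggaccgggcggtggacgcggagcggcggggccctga
Plk1: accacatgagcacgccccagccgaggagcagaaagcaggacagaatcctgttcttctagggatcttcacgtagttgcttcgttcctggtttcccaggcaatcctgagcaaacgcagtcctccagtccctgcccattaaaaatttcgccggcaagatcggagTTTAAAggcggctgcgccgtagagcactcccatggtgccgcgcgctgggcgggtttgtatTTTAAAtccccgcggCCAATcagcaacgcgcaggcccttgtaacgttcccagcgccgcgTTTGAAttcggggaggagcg
Cdc20: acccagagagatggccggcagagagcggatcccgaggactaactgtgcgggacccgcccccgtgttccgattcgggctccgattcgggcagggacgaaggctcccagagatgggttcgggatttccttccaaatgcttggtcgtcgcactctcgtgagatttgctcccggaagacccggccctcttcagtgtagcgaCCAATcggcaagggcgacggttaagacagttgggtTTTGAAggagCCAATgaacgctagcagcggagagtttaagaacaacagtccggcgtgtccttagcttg
Cenpa: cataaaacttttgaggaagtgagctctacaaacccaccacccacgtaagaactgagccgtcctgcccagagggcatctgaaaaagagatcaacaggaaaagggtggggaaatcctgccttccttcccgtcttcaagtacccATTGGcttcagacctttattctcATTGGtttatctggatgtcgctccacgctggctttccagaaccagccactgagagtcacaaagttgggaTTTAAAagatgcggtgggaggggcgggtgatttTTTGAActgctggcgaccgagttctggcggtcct
Kif23: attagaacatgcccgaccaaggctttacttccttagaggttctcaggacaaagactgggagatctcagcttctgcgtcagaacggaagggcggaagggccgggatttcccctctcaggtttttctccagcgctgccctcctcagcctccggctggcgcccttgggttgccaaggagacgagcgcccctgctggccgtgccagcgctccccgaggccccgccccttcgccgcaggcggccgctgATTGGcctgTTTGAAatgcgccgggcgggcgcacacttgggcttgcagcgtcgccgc
Anln: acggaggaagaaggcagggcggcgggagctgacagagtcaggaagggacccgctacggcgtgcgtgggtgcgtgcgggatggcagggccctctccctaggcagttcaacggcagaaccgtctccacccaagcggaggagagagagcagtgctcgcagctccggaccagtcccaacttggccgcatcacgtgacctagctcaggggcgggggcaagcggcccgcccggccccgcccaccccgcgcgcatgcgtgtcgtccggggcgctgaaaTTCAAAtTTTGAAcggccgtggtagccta

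Matched by symbol in the RefSeq table, 29 of the 34 members (not Aurkb, Ccna2, Cdc25c, Kif20a and Tpx2) gave 31 promoters, Ect2 and Prc1 having 2 each. Searched on both strands, TTTGAA or TTTAAA was found in 27 of the 31 (87.1%), against 27.6% of all 32851 promoters of the same length in the table. Within 50 bases of the start, either was found in 25 (80.6%), against 8.54% of all promoters. CCAAT was found in 25 (80.6%, against 37.4%), 2 or more copies in 17 (54.8%, against 11.7%), and both kinds of element in 24 (77.4%, against 10.7%); in no member did the 2 kinds overlap. The 2 promoters of Ect2 overlap for most of their length, as do those of Prc1, so the same letters can count again. All 7 promoters of the 5 cytokinesis genes held a CHR within 50 bases of the start. So did 18 of the 24 of the nuclear division genes. Bub1 held no CHR, Melk, Nuf2 and Nusap1 held neither element, and Anln, Birc5 and Ndc80 held no CCAAT. These matches describe letters in this window only.

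The libraries held 7109050 to 11334423 counted reads, of which 4964 to 30561 fell on the 34 members. In nPAB mice 6 and 7 the RV and LV libraries went against each other in sex: the RV library of mouse 6 had 3040 normalized counts of Xist, a transcript of the inactive X, and 0 of the Y-linked Ddx3y, while its LV library had 0.83 and 1058. Mouse 7 showed the mirror image, with Xist at 1.86 and Ddx3y at 1175 in the RV library and 3323 and 0 in the LV library. Both ventricles matched in the other 9 mice. Values that pair the ventricles of a mouse rest on these labels, so the main results that pair the ventricles are also given without mice 6 and 7. Cardiomyocyte markers were abundant in every library, with 8 genes summing to 775256 to 906827 normalized counts in RV nPAB, 765661 to 904241 in RV Sham, 841976 to 1092837 in LV nPAB and 850497 to 988021 in LV Sham. Sums of 7 lymphocyte markers lay between 21.3 and 115, and no marker of any list was at 0 throughout a group.

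Per length of exon, the 34 members covered a wide range of levels. Averaged over the 22 libraries, in RPKM (reads scaled by exon length and library size), Ube2c stood highest at 32.1 ± 12.4 (SD), followed by Mki67 at 29.6 ± 9.63 and Ccna2 at 28.5 ± 9.80. These differ by less than their spread over libraries. Cdc25c, the phosphatase that switches on Cdk1, was lowest at 1.88 ± 0.755, with Ttk at 2.39 and Kif20a at 2.62 just above it. Among the cytokinesis genes, Anln (10.7 RPKM) stood above Prc1 (5.45), Racgap1 (4.17), Kif23 (3.77) and Ect2 (2.88).

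In the banded RV, 19 of the 34 members had the higher mean log2 level in nPAB and 15 the lower, and the middle log2 fold change was 0.02, against 0.00 over all 13660 genes tested. With limma, 1 member rose (Cenpa), and 0 fell. Over all genes tested, 22% passed the same adjusted p of 0.05 (11.1% higher, 10.8% lower), so the share of members called, 1 of 34, lay below that background. Cenpa was also the 1 member with an unadjusted p under 0.05, where 33.8% of all genes (4619) had one. For no member were the 6 nPAB libraries all above or all below the 5 Sham libraries, which 12.9% of all genes tested were. The median changed with the mice included: it was -0.16 without mice 6 and 7, 0.19 without Sham mouse 11 and -0.14 without Sham mouse 10. These p-values measure the spread between the mice of this study. Markers of other cells differed beside them: 8 fibroblast markers summed to 36156 to 56383 normalized counts in RV nPAB, against 56328 to 74387 in RV Sham (4 of 8 fell, 0 rose), and 6 epicardial markers to 367 to 615, against 187 to 363 (0 of 6 passed). Their part in the members' values was not tested. In bulk tissue, fewer cells of a type and less RNA per cell cannot be told apart.

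Cenpa, the histone H3 variant that marks centromeres (chr5:30666777-30674830, plus strand), had a lowest, median and highest value of 336, 505 and 659 normalized counts in RV nPAB, against 289.9, 333, 468, 368 and 317 in RV Sham (mice 9 to 13, the order used for Sham throughout). Of the 6 nPAB libraries, 5 stood above every Sham library, but nPAB mouse 5 stood inside the Sham range. Means were 508 ± 105 in RV nPAB and 355 ± 69.2 in RV Sham (SD, n = 6 and 5), a log2 fold change of 0.51 ± 0.15 (SE; adjusted p = 0.0216). With edgeR the value was 0.51 (adjusted p = 0.0238) and with DESeq2 0.51 (adjusted p = 0.00900). The call was lost without mice 6 and 7, where limma gave 0.41 (adjusted p = 0.0772), and without Sham mouse 9 (0.44, adjusted p = 0.0618), Sham mouse 10 (0.49, adjusted p = 0.0509) or Sham mouse 13 (0.47, adjusted p = 0.0549), and without limma's trend and robust options (adjusted p = 0.0636). In the LV of the same mice, Cenpa had 227, 428 and 597 normalized counts in nPAB (lowest, median and highest), against 339.9, 252, 433, 414 and 409 in Sham. There the nPAB libraries spanned the whole Sham range, at 0.04 ± 0.25 (SE; adjusted p = 0.946) by limma.

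**Figure D1:**
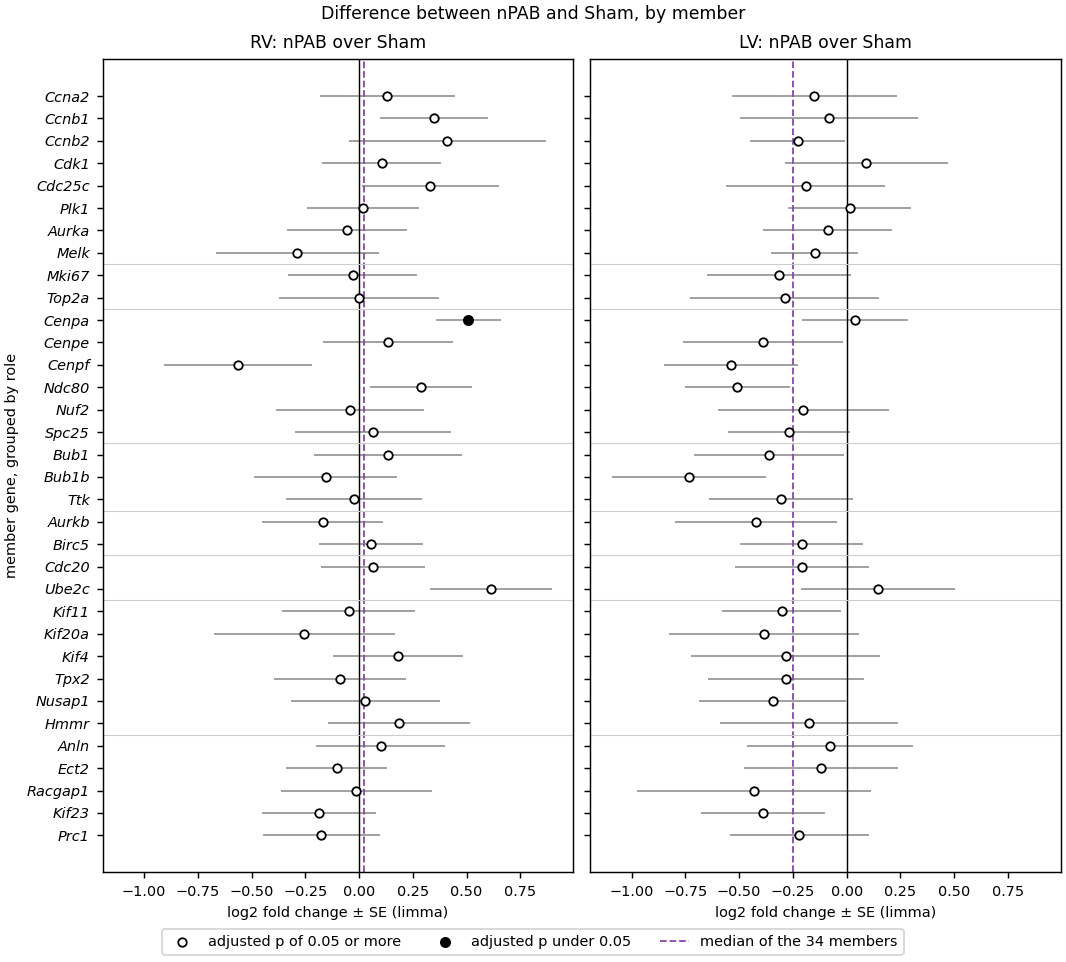
Log2 fold change of each of the 34 members, nPAB over Sham, in the RV and in the LV, grouped by role. Points are limma estimates with bars of 1 SE, filled where the adjusted p was under 0.05, and the dashed lines are the medians over members (0.02 in the RV, -0.25 in the LV). Cenpa in the RV is the 1 filled point, and most LV points lie left of 0.

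Of the 8 genes of mitotic entry, 6 had a positive and 2 a negative RV log2 fold change, and 0 passed the test (median 0.12). Ccnb1, the cyclin B1 that activates Cdk1 (chr13:100778650-100786570, minus strand), had 203, 378 and 471 normalized counts in RV nPAB (lowest, median and highest), against 209, 189.6, 400.1, 322 and 246 in RV Sham. The 3 highest libraries were nPAB and the lowest was Sham, with overlap between, at 0.35 ± 0.25 (SE; adjusted p = 0.367). Cdk1 itself, the kinase (chr10:69335146-69352938, minus strand), had 154, 311 and 446 in RV nPAB, against 243, 169, 361, 332 and 248 in RV Sham. The nPAB group held both the lowest and the highest library, and the log2 fold change was 0.11 ± 0.28 (SE; adjusted p = 0.829). Plk1, the polo-like kinase of entry and exit (chr7:122159439-122169873, plus strand), had 83.5, 171 and 199 in RV nPAB, against 119, 119, 216, 165 and 96.2 in RV Sham. Its groups overlapped almost wholly, at 0.02 ± 0.26 (SE; adjusted p = 0.971). Ccnb2, the other B-type cyclin, had 165, 381 and 1218 in RV nPAB, against 189, 259.8, 359, 325 and 309 in RV Sham. The highest of these was nPAB mouse 7 alone, and the log2 fold change was 0.41 ± 0.46 (SE; adjusted p = 0.582). Cdc25c (0.33 ± 0.32), Ccna2 (0.13 ± 0.31), Aurka (-0.06 ± 0.28), the centrosomal aurora kinase, and Melk (-0.29 ± 0.38), a kinase high in proliferating cells, lay between -0.29 and 0.33.

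Mki67, which encodes the Ki-67 coat of mitotic chromosomes and is the usual marker of cycling cells (chr7:135689784-135716361, minus strand), had 1463, 3016 and 3601 normalized counts in RV nPAB (lowest, median and highest), against 2133, 1748, 4174, 2868 and 2835 in RV Sham. The groups overlapped nearly throughout, and the highest library was Sham mouse 11. Means were 2720.2 ± 889.9 in RV nPAB and 2751 ± 926 in RV Sham (SD, n = 6 and 5), a log2 fold change of -0.03 ± 0.30 (SE; adjusted p = 0.958). Top2a, the topoisomerase that untangles sister chromatids (chr11:98992943-99024189, minus strand), had 967, 2488 and 2792 in RV nPAB, against 1465, 1205, 3397, 2175 and 2203 in RV Sham. Here again nPAB held the lowest and Sham the highest library, at 0.00 ± 0.37 (SE; adjusted p = 0.999).

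Besides Cenpa, the kinetochore genes were spread on both sides of 0. Ndc80, Nuf2 and Spc25, subunits of the complex that grips microtubules, had RV log2 fold changes of 0.29 ± 0.24, -0.04 ± 0.34 and 0.06 ± 0.36 (SE), and the kinetochore motor Cenpe 0.13 ± 0.30. Cenpf, a large kinetochore and nuclear matrix protein, had the most negative value of all members. It had 447, 908 and 1381 normalized counts in RV nPAB, against 1097, 823, 1905, 1411 and 1082 in RV Sham. Of the 6 nPAB libraries, 3 lay below every Sham library and the other 3 inside the Sham range, at -0.56 ± 0.34 (SE; adjusted p = 0.287). The spindle checkpoint kinases and sensors Bub1, Bub1b and Ttk gave 0.14 ± 0.34, -0.16 ± 0.33 and -0.02 ± 0.32.

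Aurkb, the kinase of the chromosomal passenger complex that corrects attachments (chr11:69045647-69051664, plus strand), had 76.3, 141 and 200.1 normalized counts in RV nPAB, against 118, 85.5, 231, 145 and 184 in RV Sham. The lowest library was nPAB mouse 11 and the highest Sham mouse 11, at -0.17 ± 0.28 (SE; adjusted p = 0.723), and its partner survivin (Birc5) gave 0.06 ± 0.24. Ube2c, the enzyme that starts ubiquitin chains for the anaphase-promoting complex, had the largest positive estimate of all members, with 567, 973 and 1268 in RV nPAB, against 458, 436, 1109, 644 and 498 in RV Sham. Of the 5 Sham libraries, 4 lay at or below 644 and nPAB mouse 5 lay among them, while Sham mouse 11 exceeded 4 of the 6 nPAB libraries. The log2 fold change was 0.61 ± 0.28 (SE; adjusted p = 0.156), and without Sham mouse 11 it was 0.84 (adjusted p = 0.0148). The complex's activator Cdc20 gave 0.07 ± 0.24. The spindle genes Kif11, Kif20a, Kif4, Tpx2, Nusap1 and Hmmr lay between -0.25 and 0.19, 3 above 0 and 3 below.

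**Figure D2:**
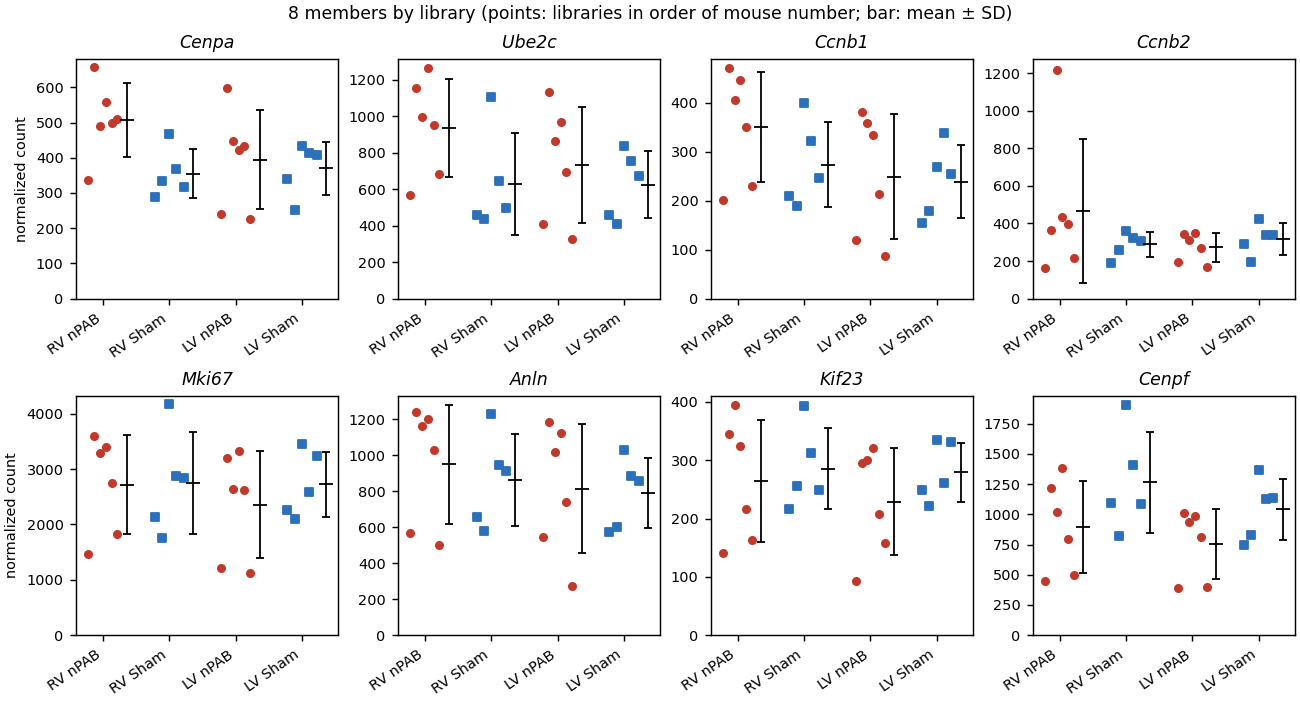
Normalized counts of Cenpa, Ube2c, Ccnb1, Ccnb2, Mki67, Anln, Kif23 and Cenpf in each library of RV nPAB, RV Sham, LV nPAB and LV Sham, on axes of their own. Each point is 1 library and the bars are the group mean ± SD. The groups of each ventricle overlap in all 8 panels, and Ccnb2 has a single RV nPAB library at 1218.

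None of the 5 cytokinesis genes passed the test in the RV (median log2 fold change -0.10), 1 above 0 and 4 below. Anln, the scaffold of the contractile ring (chr9:22332012-22389188, minus strand), had 499, 1094 and 1242 normalized counts in RV nPAB (lowest, median and highest), against 657, 578, 1227, 944 and 912 in RV Sham. Ect2, the exchange factor that activates RhoA at the cell equator (chr3:27097222-27153878, minus strand), had 80.8, 145 and 209 in RV nPAB, against 118, 101, 183, 155 and 176 in RV Sham. In both genes the nPAB group held the lowest and the highest library, and the log2 fold changes were 0.10 ± 0.30 (SE; adjusted p = 0.855) and -0.10 ± 0.23 (SE; adjusted p = 0.797). Racgap1, the GTPase-activating subunit of centralspindlin (chr15:99620496-99651656, minus strand), had 115, 296 and 371 in RV nPAB, against 219, 143, 423, 253 and 256 in RV Sham. Kif23, its motor subunit (chr9:61915905-61946774, minus strand), had 141, 269.9 and 396 in RV nPAB, against 217, 257, 394, 313 and 249 in RV Sham. Both were lowest in nPAB mouse 5, at -0.01 ± 0.35 (SE; adjusted p = 0.984) and -0.19 ± 0.27 (SE; adjusted p = 0.678). Prc1, which bundles antiparallel microtubules (chr7:80294450-80316259, plus strand), had 255, 415 and 511 in RV nPAB, against 360.0, 248, 722, 574 and 380.3 in RV Sham. Sham mice 11 and 12 were above every nPAB library and Sham mouse 10 below every one, at -0.18 ± 0.27 (SE; adjusted p = 0.704).

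In the LV, 30 of the 34 members had the lower mean log2 level in nPAB and 4 the higher. The median log2 fold change was -0.25, against -0.01 over the 13528 genes tested. None passed the test with limma, where 9.31% of all genes did (4.76% higher, 4.55% lower), and the count was also 0 with edgeR and with DESeq2, which called 1243 and 1680 genes. At limma's unadjusted p under 0.05 there were 0 members, against 24.6% of all genes (3334). For no member were the groups apart, which held for 6.53% of all genes tested. The median was -0.08 without nPAB mouse 5 or without nPAB mouse 11, and -0.52 without mice 6 and 7, with 0 members higher. The median per role was -0.12 for mitotic entry, -0.33 for kinetochores, -0.36 for the checkpoint, -0.29 for the spindle and -0.22 for cytokinesis.

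Mki67 in the LV had 1115, 2630.2 and 3336 normalized counts in nPAB (lowest, median and highest), against 2259, 2108, 3445, 2579 and 3232 in Sham. The lowest pair of libraries was nPAB mice 5 and 11 and the other 4 nPAB libraries lay inside the Sham range, at -0.31 ± 0.33 (SE; adjusted p = 0.622). Top2a had 542, 2069.7 and 2576 in LV nPAB, against 1342, 1412, 2529, 1992 and 2452 in LV Sham. The same mice 5 and 11 were lowest, at -0.29 ± 0.44 (SE; adjusted p = 0.743). Ccnb1 had 87.1, 274 and 382 in LV nPAB, against 154, 179, 269, 339 and 255 in LV Sham. Its nPAB libraries reached both below and above all Sham libraries, at -0.08 ± 0.41 (SE; adjusted p = 0.928). Cdk1 had 97.9, 326 and 432 in LV nPAB, against 176, 193, 326, 256 and 244 in LV Sham. That gene had 1 of the 4 positive LV estimates, 0.09 ± 0.38 (SE; adjusted p = 0.913), beside Ube2c, Cenpa and Plk1. Plk1 had 64.1, 140.4 and 228 in LV nPAB, against 105, 96.6, 119, 164 and 159 in LV Sham, at 0.01 ± 0.29 (SE; adjusted p = 0.985). Aurkb had 46.0, 127 and 184 in LV nPAB, against 209, 82.1, 175, 89.3 and 224 in LV Sham. Sham libraries 9 and 13 stood above every nPAB library, at -0.42 ± 0.38 (SE; adjusted p = 0.54). The most negative members, which were picked here after their values were seen, were Bub1b at -0.73 ± 0.36 (SE; adjusted p = 0.222), Cenpf at -0.54 ± 0.31 (SE; adjusted p = 0.326) and Ndc80 at -0.51 ± 0.24 (SE; adjusted p = 0.208).

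All 5 cytokinesis genes had a negative LV estimate. Anln had 273, 882 and 1182 normalized counts in LV nPAB, against 572, 604, 1027, 887 and 857 in LV Sham, and Ect2 47.2, 141 and 185 in LV nPAB, against 76.0, 84.6, 189.8, 157 and 169 in LV Sham. The lowest library was nPAB mouse 11 for both, at -0.08 ± 0.39 (SE; adjusted p = 0.928) and -0.12 ± 0.36 (SE; adjusted p = 0.878). Racgap1 had 56.8, 288 and 340.4 in LV nPAB, against 194, 152, 536, 294 and 274 in LV Sham. By the SD of its log2 level it was the most variable member in the LV of both groups, lowest in nPAB mouse 11 and highest in Sham mouse 11, at -0.43 ± 0.54 (SE; adjusted p = 0.684). Kif23 had 92.4, 251 and 321 in LV nPAB, against 248, 222, 334, 260.4 and 332 in LV Sham, at -0.39 ± 0.29 (SE; adjusted p = 0.449). Prc1 had 175, 384 and 538 in LV nPAB, against 312, 257, 505, 445 and 429 in LV Sham, at -0.22 ± 0.32 (SE; adjusted p = 0.732). For Prc1, nPAB mice 5 and 11 lay below all Sham libraries and nPAB mouse 6 above them. For Kif23, nPAB mice 5, 10 and 11 lay below all Sham libraries and the other 3 inside their range.

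**Figure D3:**
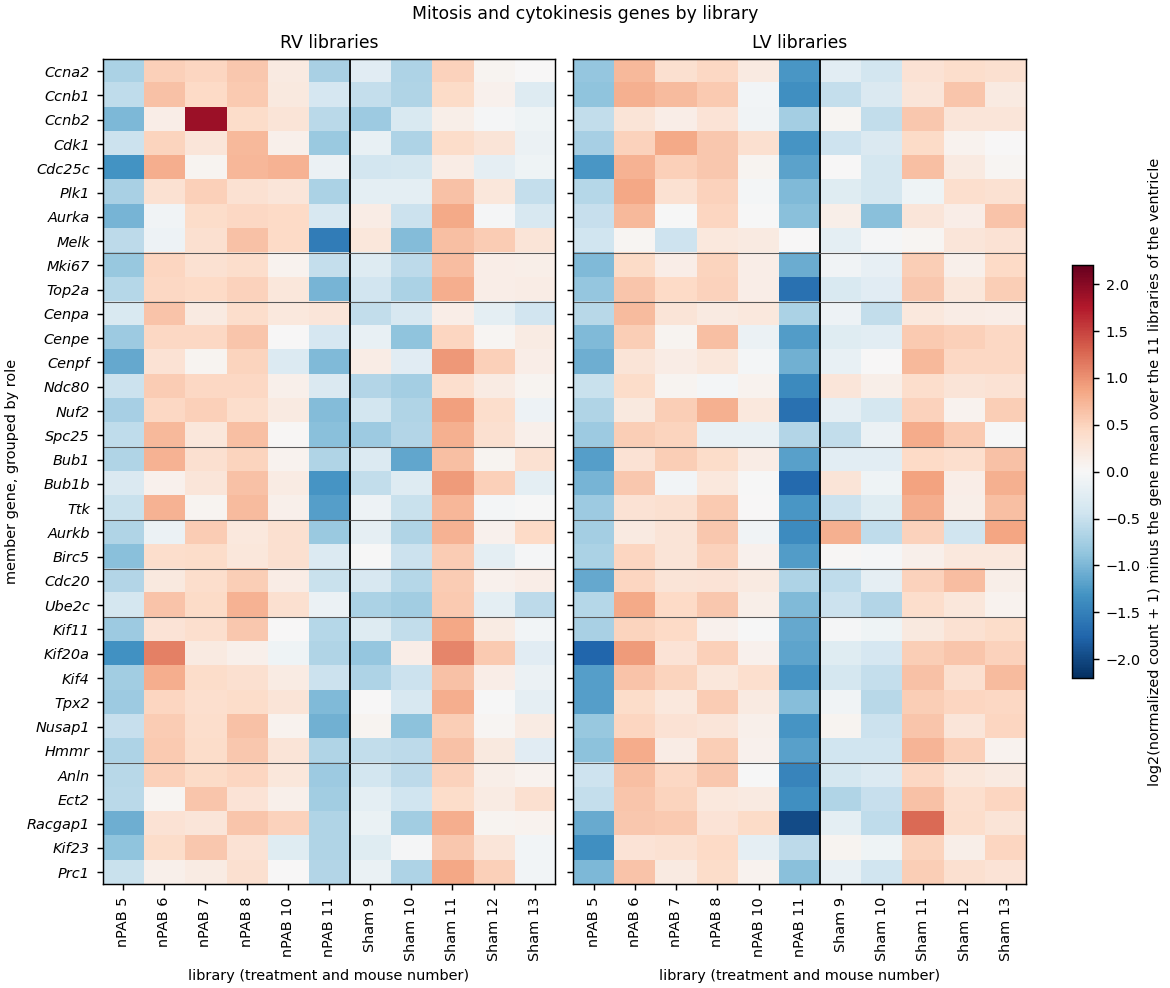
Heat map of the 34 members (rows, by role) in each RV and LV library (columns, nPAB left of Sham, with mouse numbers), as log2(normalized count + 1) minus that gene's mean over the 11 libraries of the ventricle. Whole columns are low for nPAB mice 5 and 11 and for Sham mice 9 and 10, and high for Sham mouse 11.

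Whether nPAB and Sham differed by unequal amounts in the 2 ventricles was tested as RV response minus LV response, in a fit with the mouse as a block. The estimate was positive for 32 of the 34 members (median 0.28, against 0.01 over 13364 genes). Since members moved together within each ventricle, these signs are not independent observations. None passed limma's adjusted p, where 0.00748% of all genes did (1 gene), and 6 of 34 members had an unadjusted p under 0.05, against 11% of all genes (1474). With edgeR and with DESeq2 on the whole reads, 0 members passed and 11 had an unadjusted p under 0.05 in each, against 12.1% of all genes in each. The smallest adjusted p was that of Nusap1, a microtubule-binding spindle protein, at 0.37 ± 0.11 (SE; adjusted p = 0.281), and the largest estimate that of Ndc80, 0.80 ± 0.25 (SE; adjusted p = 0.307). Mki67 differed by 0.28 ± 0.15 (SE; adjusted p = 0.525), Ube2c by 0.47 ± 0.21 (SE; adjusted p = 0.444) and Cenpa by 0.47 ± 0.21 (SE; adjusted p = 0.451). The cytokinesis genes had 0.18 ± 0.17 (Anln), 0.01 ± 0.20 (Ect2), 0.42 ± 0.26 (Racgap1), 0.20 ± 0.16 (Kif23) and 0.04 ± 0.20 (Prc1). Their median, 0.18, compared with 0.28 over the nuclear division genes, 0.40 over kinetochore genes and 0.50 over the 3 checkpoint genes. Without mice 6 and 7 the median over the 34 was 0.37. Limma still called 0 members there, but edgeR called Ube2c (0.60, adjusted p = 0.0244) and Hmmr (0.42, adjusted p = 0.0218), among 3.77% of all genes, and DESeq2 the same members (0.61, adjusted p = 0.0156, and 0.42, adjusted p = 0.0151), among 4.22%. Markers of other cells differed in the same contrast: 8 of 8 fibroblast markers had a lower estimate (median -0.40, 0 passed), and their part in the members' values was not tested.

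The same contrast can be read within each treatment, with reads of all 22 libraries scaled together. In nPAB mice, 33 of 34 members had a higher mean log2 level in the RV than in the LV (median log2 difference 0.24, against 0.00 over all genes tested). In Sham mice 12 of 34 did (median -0.03, against -0.01). Here too the signs of members that move together are not independent observations. With limma, 0 members passed in either treatment. The background was 0% of 13633 genes in both. At an unadjusted p under 0.05 there were 11 members and 1787 genes (13.1%) in nPAB mice, and 0 members and 1176 genes (8.63%) in Sham mice. The count tools made calls in nPAB mice: with edgeR 3 members passed, Hmmr (0.33, adjusted p = 0.0144), Ccnb1 (0.54, adjusted p = 0.0187) and Ndc80 (0.57, adjusted p = 0.0393), among 397 genes (2.91%). DESeq2 called those and also Ube2c, Top2a and Cenpe, 6 members among 610 genes (4.47%), and in Sham mice both tools called 0 members among 97 and 181 genes. Hmmr binds hyaluronan outside cells and spindle poles within them. Without mice 6 and 7, edgeR called 5 members, Ccnb1, Hmmr, Ube2c, Cenpa and Top2a, where it called 6.05% of all genes. DESeq2 called those and Ndc80, where it called 6.65%. In nPAB mice, 7 of 8 cardiomyocyte markers had a lower mean log2 level in the RV than in the LV (median -0.25). In Sham mice 8 of 8 did (median -0.10). Epicardial markers were higher in 6 of 6 in nPAB mice (median 0.61) and in 5 of 6 in Sham mice (median 0.68), none of these markers passed with limma, and their part was not tested.

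Averaged over the 34 members, RV minus LV was 0.28 in nPAB mouse 5, 0.03 in mouse 6, 0.23 in mouse 7, 0.21 in mouse 8, 0.24 in mouse 10 and 0.60 in mouse 11 on the log2 scale. The Sham mice 9 to 13 had 0.0037, -0.072, 0.26, -0.0047 and -0.27. All 6 nPAB mice were thus above 0, as were 2 of 5 Sham mice, with Sham mouse 11 inside the nPAB range, for means of 0.27 ± 0.19 in nPAB and -0.02 ± 0.19 in Sham (SD, n = 6 and 5). Ccnb1, Top2a, Cenpa, Cenpe, Ndc80, Bub1 and Anln were higher in the RV in 6 of 6 nPAB mice. For mice 6 and 7 these differences rest on libraries whose pairing is in doubt, and the median over members without them was 0.31 in nPAB mice. The mean over members in the other 4 nPAB mice was 0.34 ± 0.18 (SD, n = 4), and 18 of the 34 members were higher in the RV in all 4. The like shares over all genes were not worked out, so these counts over mice describe the members only.

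**Figure D4:**
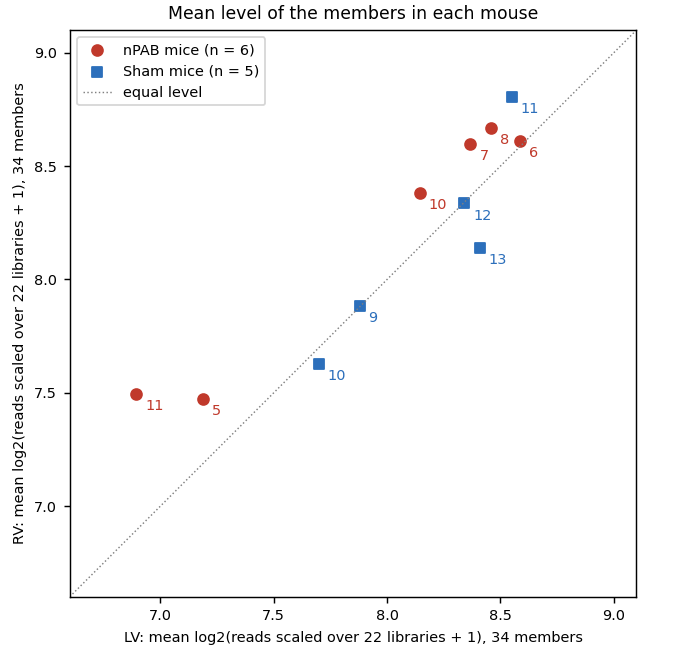
Mean log2 level of the 34 members in the RV (vertical axis) against the LV (horizontal axis) of each mouse, labelled with mouse numbers, nPAB and Sham marked apart, with the line of equality. All 6 nPAB mice lie above the line, 2 of them (5 and 11) at its lower end, and the 5 Sham mice lie on both sides of it.

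The members spread more between animals than the median gene did. The median SD of log2 level over the 34 members was 0.593 in RV nPAB, 0.512 in RV Sham, 0.739 in LV nPAB and 0.423 in LV Sham. Over all genes tested it was 0.270, 0.253, 0.278 and 0.253 in the same groups. As a ratio of the highest to the lowest library, the median member spanned 2.70-fold in RV nPAB, 2.37-fold in RV Sham, 3.56-fold in LV nPAB and 1.98-fold in LV Sham, against 1.64, 1.54, 1.68 and 1.54 over all genes. The biological coefficient of variation, which removes counting noise, was 39.0%, 33.6%, 46.2% and 27.5% for the median member, against 16.1%, 14.7%, 16.9% and 14.7% over all genes. By SD, genes of S phase lay between the members and all genes, at 0.537, 0.440, 0.618 and 0.389. As a ratio they spanned 2.84-fold, 2.12-fold, 3.06-fold and 1.97-fold in the same groups, above the members in RV nPAB. Whether the spread differed between nPAB and Sham was not tested.

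Single members differed in how far they spread. In RV nPAB, Cenpa was the steadiest (SD 0.320, 1.96-fold between extremes) and Ccnb2 the most variable (0.994, 7.39-fold). In RV Sham the range ran between Cdc25c (0.230, 1.48-fold) and Kif20a (0.746, 3.89-fold), a motor of the central spindle. In LV nPAB it ran between Melk (0.305, 1.62-fold) and Racgap1 (1.08, 5.99-fold; by ratio Kif20a spanned more, 6.62-fold), and in LV Sham between Ndc80 (0.0936, 1.20-fold) and Racgap1 (0.687, 3.52-fold). The rank of a member by spread thus differed between groups.

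Members were high or low together in the same mice. In nPAB, mice 5 and 11 were both below all other nPAB mice for 33 of 34 members in the RV and 33 of 34 in the LV. In Sham, mice 9 and 10 were the lowest pair for 25 of 34 in the RV and 32 of 34 in the LV, and Sham mouse 11 was highest for all 34 members in the RV and 21 in the LV. Summed over members, RV nPAB mice 5 and 11 had 9400 and 9931 normalized counts and the other 4 between 17156 and 21775, against 10323 to 24260 in RV Sham. In LV nPAB they had 7469 and 6003 and the other 4 between 14514 and 19979, against 11049 to 19574 in LV Sham. Cardiomyocyte markers moved the other way in the LV, where nPAB mice 5 and 11 had summed levels of 1072552 and 1092837, above every other LV library, and the correlation of the marker mean with the member mean over 11 LV libraries was -0.839, each as the deviation from its group mean. In the RV that value was -0.555. Other markers also varied with the members. RV and LV values were -0.675 and -0.375 for endothelial markers and -0.469 and -0.411 for macrophage markers. Fibroblast markers had 0.519 and 0.399, and pericyte and smooth muscle markers 0.410 and -0.451. Epicardial markers had -0.053 and -0.405, erythroid markers 0.029 and -0.286, and lymphocyte markers 0.212 in the LV. The part of these cell types in the members' levels was not tested. RV nPAB mice 5 and 11 also had the fewest counted reads of their group, 9236263 and 8652475, against 9299717 to 10299288 in the other 4. In LV nPAB they had 9110207 and 7900110, against 9295128 to 11334423. RV Sham mouse 11 was the deepest RV library (10678354). Depth did not always follow in Sham. LV mouse 9, low for the members, was the deepest LV Sham library (8795545). The shallowest RV Sham library was mouse 13 (7425088). The part of depth was not tested.

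Within each ventricle the members moved together. After group means were removed, the mean of the 34 carried 80.9% of their variance in the RV and 84.2% in the LV, and the median correlation between 2 members was 0.858 in the RV and 0.901 in the LV over 11 libraries that share their preparation and scaling. Ccnb2 (0.709) and Cenpa (0.738) followed the other members least in the RV. The median over all other genes with the member mean was -0.03 in the RV and -0.02 in the LV.

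The ventricles of a mouse also moved together. For Mki67, the 1 member for which this relation was tested, RV and LV log2 levels over the 11 mice gave Pearson's r = 0.875 (permutation p = 0.00024) and Spearman's rho = 0.882 (permutation p = 0.00074), 2-sided over 100000 permutations. Without the mice farthest from the RV median (Sham mouse 10 and nPAB mouse 5) r was 0.862 (exact permutation p = 0.000532) and rho 0.833 (exact permutation p = 0.00827). Without mice 6 and 7 r was 0.874 (exact permutation p = 0.0011) and rho 0.900 (exact permutation p = 0.00203), and in the 6 nPAB mice alone r was 0.957 (exact permutation p = 0.0167) and rho 0.886 (exact permutation p = 0.0333). As a description over members, the correlation of same-mouse deviations had a median of 0.862, between 0.244 for Melk and 0.969 for Hmmr, against 0.240 over all genes tested. The S-phase genes had 0.754. Without mice 6 and 7 the medians were 0.850 over members, 0.270 over all genes and 0.774 over S-phase genes.

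Cytokinesis genes were set against the nuclear division genes within each library, as the mean log2 level of the 5 minus that of the 29, so that the shared rise and fall of a mouse cancels. In RV nPAB this difference had a lowest, median and highest value of -0.049, 0.076 and 0.144, against 0.228, 0.197, 0.137, 0.222 and 0.260 in RV Sham. Of the 6 nPAB libraries, 5 lay below all Sham libraries, and nPAB mouse 7 just above Sham mouse 11. Means were 0.068 ± 0.069 in RV nPAB and 0.209 ± 0.046 in RV Sham (SD, n = 6 and 5), a difference of -0.14 on the log2 scale. Leaving out any 1 mouse gave values between -0.16 and -0.12, and leaving out mice 6 and 7 gave -0.13. In the LV the lowest, median and highest values were 0.026, 0.151 and 0.263 in nPAB, against 0.044, 0.096, 0.353, 0.151 and 0.121 in Sham, with complete overlap. Means there were 0.152 ± 0.077 in LV nPAB and 0.153 ± 0.119 in LV Sham. With medians over members in place of means, the LV difference was -0.22. In the RV the 29 differed among themselves, with log2 fold changes between -0.56 (Cenpf) and 0.61 (Ube2c). Cenpa (0.51) and Ccnb2 (0.41, its highest library nPAB mouse 7 alone) were also high. Aurkb (-0.17) and Bub1b (-0.16) lay near the cytokinesis genes Kif23 (-0.19) and Prc1 (-0.18). Kif20a, a motor of the central spindle, was counted among the 29. How far single genes set the RV difference was not tested. No p is given for a score over chosen genes.

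**Figure D5:**
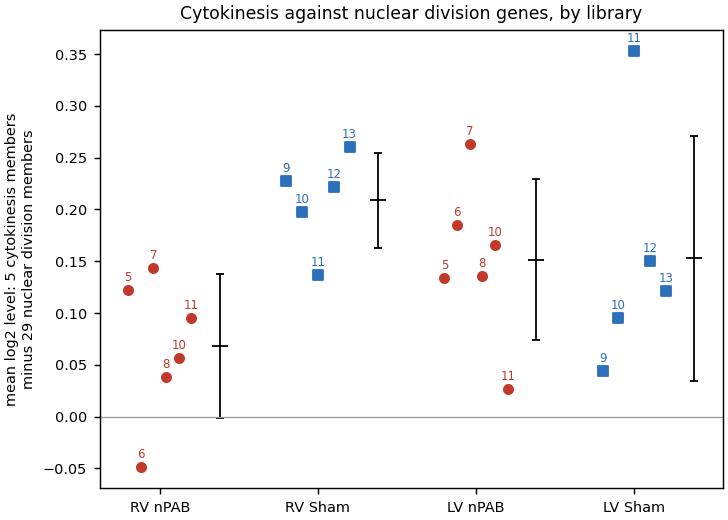
Mean log2 level of the 5 cytokinesis genes minus that of the 29 nuclear division genes in each library, for RV nPAB, RV Sham, LV nPAB and LV Sham. Points are libraries with mouse numbers and bars the group mean ± SD. RV nPAB lies below RV Sham except at mouse 7, and the LV groups overlap.

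The same step can be taken for each member, as its log2 level minus the mean of the other 33. The groups then parted for 3 members in the RV, Ccnb1, Ube2c and Cenpf, and for Ube2c in the LV. Measured against the member mean, they parted for 1.7% of all genes tested in the RV and 0.998% in the LV. These shares are not a like background for the members. The member mean carries 80.9% (RV) and 84.2% (LV) of the members' variance, but its median correlation with other genes is -0.03 and -0.02. Subtracting it thus takes shared spread out of members and adds spread to most other genes. These members are named because their values were seen to part. Relative Ccnb1 lay between 0.088 and 0.361 in RV nPAB, against -0.202 to 0.0014 in RV Sham. Relative Ube2c lay between 1.42 and 1.97 in RV nPAB, against 0.84 to 1.35 in RV Sham, and between 1.40 and 1.67 in LV nPAB, against 1.05 to 1.30 in LV Sham. Ube2c was the member whose groups parted in both ventricles on this scale, higher in nPAB by 0.59 in the RV and 0.40 in the LV. Relative Cenpa, among others, was also higher in nPAB in both (0.48 and 0.29), with overlapping groups. Relative Cenpf lay between 1.32 and 1.81 in RV nPAB, against 1.99 to 2.30 in RV Sham, a difference of -0.63, and in the LV the groups overlapped.

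Outside the 34, the genes whose deviations were most like the member mean in both ventricles, by the lower of the RV and LV correlations over 11 libraries each, were Aspm (0.977), Knl1 (0.972), Kif15 (0.964), Ckap2 (0.960), Arhgap11a (0.956), Sgo2a (0.944), Lmnb1 (0.943) and Ckap2l (0.943). Aspm focuses spindle poles, Knl1 is a kinetochore scaffold and Lmnb1 is lamin B1. Of these 8, Lmnb1 was in none of the lists drawn up for the pathway. Of the 100 most alike, with a lowest correlation of 0.806, 53 were in those lists.

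The rest of the mitotic pathway was followed in 115 further genes, of which 114 were tested. In the RV, 6 rose and 4 fell, where 22% of all genes passed, with a median log2 fold change of 0.03. The 6 were Chmp4c, an abscission factor (0.56, adjusted p = 0.00056), the kinetochore gene Cenpt (1.25, adjusted p = 0.00085), securin (Pttg1, 0.74, adjusted p = 0.0098), the septins Sept7 (0.25) and Sept2 (0.21) and the small GTPase Rhoa (0.19). The 4 were Numa1, which anchors spindle poles (-0.66, adjusted p = 0.00014), the phosphatase Cdc14b (-0.44), the microtubule depolymerase Kif2a (-0.29) and Ska2 of the kinetochore (-0.45). In the LV, 2 rose, the Cdk1 inhibitor Wee1 (0.85, adjusted p = 0.00091) and Chmp4c (0.53), and 3 fell, Numa1 (-0.49), Cdc14b (-0.61) and the cohesin subunit Smc3 (-0.30), with a median of -0.11 and a background of 9.31%. For the difference between ventricles 0 of the 114 passed (median 0.13). Several of these, such as Rhoa, the septins and Smc3, also act outside mitosis. Of 22 regulators of mitotic transcription, Nfya and Nfyb, subunits of the CCAAT-binding NF-Y, fell in the RV (-0.59, adjusted p = 0.0068, and -0.48), Nfya also fell in the LV (-0.62, adjusted p = 0.0474), and the other 20 in the RV and 21 in the LV did not pass. The share of all genes that fell was 10.8% in the RV and 4.55% in the LV. These values are from limma.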

How the data were processed

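Per the labels' protocols, RNA came from Qiagen RNeasy Plus Mini columns and sequencing libraries from the Revelo high-sensitivity RNA-seq kit. Per the submitters' processing notes, cutadapt, featureCounts, DESeq2 and mm10 were used; no version, aligner or strand setting of the counting is stated there, so reads of a gene and of one overlapping it on the other strand may be mixed. The values deposited by the authors are a normalized signal per gene, 1 table per ventricle: every value is a whole read count divided by 1 factor per library, and 100% of values came back whole within 0.001 of a read. The RV and LV tables were scaled separately. Depth was 7109050 to 11334423 reads per library. Taken over genes together, Poisson noise was small beside the spread between mice. The least different pair of libraries in a group had a chi-square per degree of freedom of 7.47 over 50 pairs. This does not hold for every member in every group. In LV Sham the biological coefficient of variation was 0.988% for Ndc80 and 5.68% for Birc5, against 27.5% for the median member.

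Groups were taken from the labels. Each comparison was fitted over all genes with a mean of at least 10, on log2(value + 1), with limma 3.58.1 in R 4.3.3 (trend and robust options), 2-sided; p-values were adjusted by Benjamini and Hochberg's method and called under 0.05. Fold changes on this scale understate those of low genes. RV against LV used the reads of all 22 libraries scaled together by TMM, with the mouse as a block, since both ventricles of a mouse carry its number; same-mouse deviations correlated over 12899 genes between 0.0548 (nPAB mouse 7) and 0.383 (nPAB mouse 11). Alternatives were edgeR 4.0.16 and DESeq2 1.42.0 on the recovered whole reads, other pseudocounts (0.5, 5) and filters (none, 50), no trend or robust option, array weights, a sex term, the S-phase mean as a covariate (chosen after seeing the data), and leaving out each mouse and mice 6 and 7 together. The fitting steps were tested on simulated data. Figures were drawn with matplotlib 3.10.9.

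The members and all gene lists were chosen with earlier results of these data known. The text names Mki67, Top2a, Cenpa, Ccnb1, Cdk1, Aurkb, Plk1 and the 5 cytokinesis genes in full, and other members by the size of their estimate; those were picked after their values were seen. Correlations between members, between ventricles and with markers used deviations from group means. The tested correlations of Mki67 between ventricles were the exception, and used log2 levels with group means left in. RPKM used exon lengths of the GENCODE annotation.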

Additional observations from a re-analysis of the deposited data

Results flagged for a closer look

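In each group, the highest and the lowest library of every member, of the mean over members and of the cytokinesis minus nuclear division difference were compared with the rest of that group by Dixon's criterion. Of 144 groups of libraries examined, 2 held a library set apart, where chance alone gives about 1 in 20. Ccnb2, cyclin B2, had 1218 normalized counts in the RV of nPAB mouse 7, where the nearest other RV nPAB library had 435 and the lowest 165. The same mouse is 1 of the 2 whose ventricles went against each other in sex. Tpx2, which nucleates microtubules at the spindle and activates aurora A, had 441 in the RV of Sham mouse 11, where the nearest other RV Sham library had 253 and the lowest 197. Sham mouse 11 was the highest RV Sham library for all 34 members.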

How the results depend on the processing

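Of 4148 member values under the alternatives, 4118 kept the side of the threshold, 25 gained it and 5 lost it; 223 (5.4%) had the other sign, none past the threshold in either fit. The count of RV members called, 1 in the results, was 0 without the trend and robust options and 0 without mice 6 and 7, and ranged between 0 and 2 when single mice were left out, with 2399 to 3015 genes. The LV count stayed at 0 members throughout, while LV genes numbered 739 without the trend and robust options, 668 without mice 6 and 7, and 841 to 1290 without single mice. For the difference of response (1 gene), the gene count was 0 at a pseudocount of 0.5, 35 at a mean of at least 50, 9 with array weights, 11 with the sex term, 29 without mice 6 and 7, 137 with edgeR, 249 with DESeq2, 0 with TMM scaling, and 0 to 20 without single mice, with 0 members each time. With mice 6 and 7 left out, an alternative chosen after seeing the data, edgeR gave 503 genes and 2 members, and DESeq2 563 genes and 2 members. For RV against LV (0 genes in both treatments), Sham mice gave 1 gene without the trend and robust options, 97 with edgeR and 181 with DESeq2. In nPAB mice there were 3 genes with the sex term, 7 without mice 6 and 7, 397 genes and 3 members with edgeR, and 610 genes and 6 members with DESeq2. The same added alternative gave 826 genes and 5 members with edgeR and 908 genes and 6 members with DESeq2. Single mice left out gave 0 in both. In every fit that pairs the ventricles, the sex term also left out mice 6 and 7, whose libraries differed in sex. Without the replicate block, the count was 5 genes for the difference, 6 in Sham mice and 4 in nPAB mice; with the RV libraries of mice 6 and 7 crossed in the pairing, the difference had 0. The cytokinesis minus nuclear division difference ranged between -0.159 and -0.118 in the RV and between -0.0285 and 0.0488 in the LV without single mice, and with medians over members the LV value was -0.22. The causes of these changes were not tested. Melk had the fewest reads of the members, 22 to 147 in RV libraries and 54 to 113 in LV libraries, and a limit set by depth was not tested.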

Other observations

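DNA replication genes of S phase, which precede the members in the cycle, were tested as a list of 34, of which 33 passed the filter. In the RV, 1 rose, Ccne1 (cyclin E1, which starts S phase with Cdk2), by 1.19 on the log2 scale (limma, adjusted p = 0.0048), and 0 fell, with a median log2 fold change of 0.07, where 22% of all genes passed. In the LV 0 passed, where 9.31% of all genes did, with a median of -0.14. By the mean log2 level of the list, nPAB mice 5 and 11 were the lowest nPAB libraries in both ventricles, as they were for the mitotic genes. In the RV it was 7.02 in nPAB mouse 5 and 6.07 in nPAB mouse 11, beside 7.23 to 7.33 in the other 4 nPAB mice and 6.53 to 7.43 in RV Sham. In the LV it was 6.88 in nPAB mouse 5 and 5.73 in nPAB mouse 11, beside 7.02 to 7.24 in the other 4 and 6.54 to 7.26 in LV Sham. Mouse 11 was thus below every Sham library in both ventricles for replication and for mitosis genes, and mouse 5 for mitosis genes, while for replication genes mouse 5 lay within the Sham range.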
